A study of Chlorocebus sabaeus with 10 samples.

Results

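Hepatic transcripts of lipoprotein remodeling and receptor genes were compared between vervet monkeys fed a high fructose (HFr) diet and monkeys fed chow. The set comprised 10 genes, namely the hepatic lipase gene LIPC, LCAT, CETP, PLTP, SCARB1, LRP1, SORT1, ABCA1, ABCG5 and ABCG8, chosen by gene symbol from a table of 28078 transcripts. Each gene was represented by 1 annotated transcript. Of the 10 genes, 9 had enough counts to be tested among 7948 transcripts, and ABCA1 did not. Livers came from 10 female vervets (Chlorocebus sabaeus, an Old World monkey), all on chow beforehand, of which 5 were then fed the HFr diet and 5 chow for 6 weeks. Each animal gave 1 biopsy and 1 library of polyadenylated RNA. Animals were allocated to balance age and body weight, although the HFr group was older on average, the age of each animal was not used here, and no sample from before the diet was analysed here. Whole biopsies were sequenced, so fewer cells of a type and less RNA per cell cannot be told apart.

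Lipoproteins carry cholesterol and triglyceride in plasma, and the liver both secretes them and clears them. Hepatic lipase hydrolyses lipids of lipoproteins in the liver sinusoids, LCAT esterifies cholesterol on high-density lipoprotein (HDL), and CETP and PLTP exchange lipids between particles. SCARB1 takes cholesteryl esters from HDL into hepatocytes, LRP1 clears remnant particles, SORT1 (sortilin) sorts cargo such as apolipoprotein B within the secretory and endosomal pathway, and the ABC transporters export sterols, ABCA1 to nascent HDL and the ABCG5/ABCG8 pair to bile.

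SORT1, LCAT and LIPC had the clearest diet differences of the set, 1.66-fold, 1.49-fold and 1.44-fold higher on the HFr diet. CETP and LRP1 differed least, by 1.08-fold and 1.096-fold. PLTP, SCARB1, ABCG5 and ABCG8 lay in between, with intervals that included no difference. All 9 tested genes had a higher fitted mean on the HFr diet, and none passed the threshold of 0.05 after adjustment over all tested transcripts.

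Of the 9 tested genes, 3 (33.3%) were under an unadjusted p of 0.05 by the quasi-likelihood test of edgeR, all 3 higher on the HFr diet, where 4.29% of all 7948 transcripts were under this threshold in either direction and 2.06% were under it and higher on the HFr diet. After Benjamini-Hochberg adjustment 0 of the 9 genes and 0% of all transcripts passed, and DESeq2 and limma also gave 0 of the 9, with 2 and 0 of all transcripts. Each of the 9 genes had an adjusted p of 0.9996. No tested gene had diet groups that did not overlap, against 0.541% of all tested transcripts. The median log2 fold change of the 9 genes was 0.35, against -0.00069 over all tested transcripts, of which 49.8% were higher on the HFr diet. The genes were measured in the same 10 animals and are not replicates of each other. They were chosen with earlier results of these data known, so these shares and medians are not independent evidence.

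**Figure D1:**
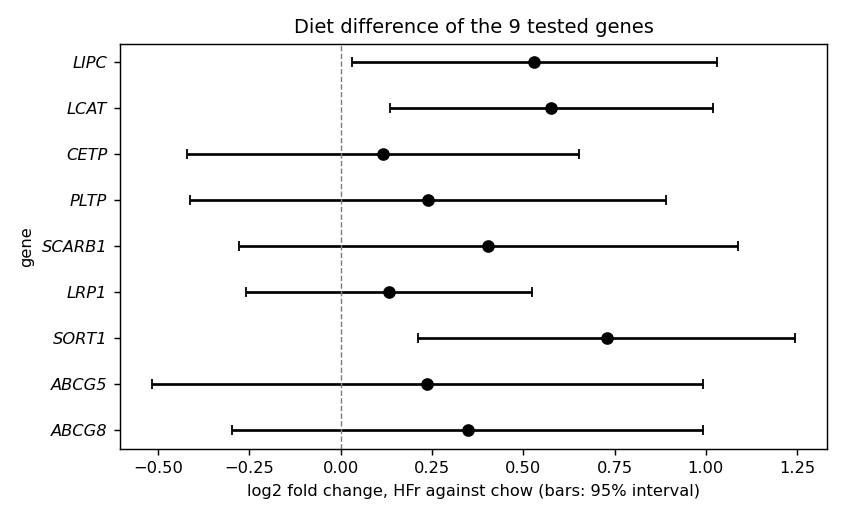
Log2 fold change of each tested gene, HFr against chow (x axis), with the gene on the y axis, points for the edgeR estimate and bars for its 95% interval. The intervals of LIPC (0.03 to 1.03), LCAT (0.13 to 1.02) and SORT1 (0.21 to 1.24) lie above 0, and those of the other 6 genes include it.

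Libraries held 2977282 to 4992505 estimated counts, of which 34.7% to 73.6% fell on mitochondrial transcripts. Nuclear transcripts had 864571 to 2657103 counts, with the fewest in chow replicates 4 and 5. Values are given as normalized counts, that is estimated counts per 1e6 of library size after scaling by TMM (the trimmed mean of M values). They allow animals to be compared for 1 gene and not genes with each other, since transcript lengths were not used. Summed normalized counts of 10 hepatocyte markers, albumin among them, ranged from 50754 to 75738 on the HFr diet and from 40292 to 83080 on chow, and 5 of the 9 skeletal muscle markers in the table had a count in any animal, none enough to be tested.

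The plasma enzymes LIPC and LCAT are considered first. LIPC (ENSCSAG00000011971) lies on the minus strand of chromosome 26 of the ChlSab1.1 assembly, from 24946673 to 25087921. Its normalized counts in HFr replicates 1 to 5 were 35.2, 53.2, 43.3, 60.2 and 69.0, and in chow replicates 1 to 5 they were 26.3, 37.4, 46.6, 46.2 and 24.6. The diets overlapped, with 3 HFr animals above the highest chow animal and chow replicates 1 and 5 below all others. The mean was 52.2 ± 13.4 in HFr livers (SD, n = 5) versus 36.2 ± 10.5 in chow livers (SD, n = 5). Its log2 fold change was 0.53 (standard error 0.23, 95% interval 0.03 to 1.03, unadjusted p = 0.0390 from edgeR). A two-sided exact permutation test of log2(normalized count + 1) gave p = 0.0873. The edgeR p was no longer under 0.05 when any 1 of HFr replicates 2, 4 and 5 or chow replicates 1, 2 and 5 was left out, reaching 0.111 without HFr replicate 5, where the log2 fold change was 0.41.

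LCAT (ENSCSAG00000004012) occupies a short stretch of chromosome 5, from 59497115 to 59500448 on the plus strand. Its normalized counts in HFr replicates 1 to 5 were 159, 173, 117, 205 and 134, against 139, 91.4, 112, 109 and 77.6 in chow replicates 1 to 5. Chow replicate 1 overlapped the HFr animals, and the other 4 chow animals lay below every HFr animal. The mean was 158 ± 34.2 in HFr livers (SD, n = 5) versus 106 ± 23.3 in chow livers (SD, n = 5). On the log2 scale the fold change was 0.58 (standard error 0.21, 95% interval 0.13 to 1.02, unadjusted p = 0.0143 from edgeR), and the exact permutation test gave p = 0.0238. With any single animal left out the edgeR p stayed under 0.05, at most 0.0422 without HFr replicate 4, and without both chow replicates 4 and 5 it was 0.0769. APOA1, the main HDL protein and the activator of LCAT, had 6168 ± 1702 normalized counts in HFr livers (SD, n = 5) versus 5583 ± 1486 in chow livers (SD, n = 5), and its log2 fold change was 0.14 with a 95% interval from -0.47 to 0.76.

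**Figure D2:**
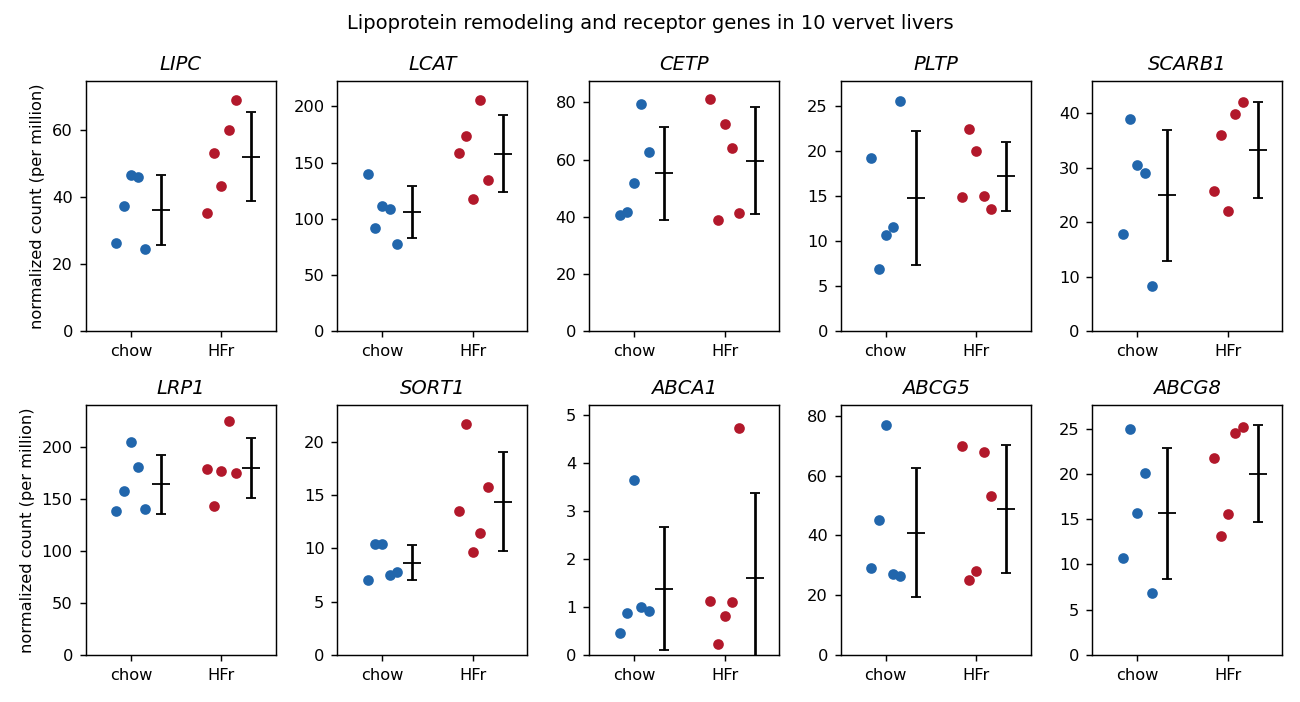
Normalized counts of the 10 genes (y axes, linear and starting at 0) in 5 chow and 5 HFr livers (x axes), with 1 point per animal in the order of replicate number and a black bar for the mean ± SD. For SORT1, 4 of 5 HFr animals lie above the highest chow animal, for ABCA1 1 animal of each diet stands apart, and the lower ABCA1 bar on the HFr diet would pass below 0 and is cut at the axis.

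The lipid transfer genes CETP and PLTP differed little between the diets relative to their spread. CETP lies on chromosome 5 from 42910226 to 42936277. Its normalized counts in HFr replicates 1 to 5 were 81.2, 39.0, 72.5, 64.2 and 41.5, and in chow replicates 1 to 5 they were 40.6, 41.6, 51.9, 79.3 and 62.5. High and low animals occurred on both diets, with means of 59.7 ± 18.8 in HFr livers (SD, n = 5) and 55.2 ± 16.2 in chow livers (SD, n = 5). The log2 fold change was 0.12 (standard error 0.25, 95% interval -0.42 to 0.65, unadjusted p = 0.648 from edgeR), and it was -0.03 without HFr replicate 1.

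Macrophage markers were high in several of the animals in which CETP was high. The summed normalized counts of the 9 macrophage markers in the table, led by C1QB and CD5L, were 199.5, 47.2, 178, 102 and 174 in HFr replicates 1 to 5 and 90.3, 53.5, 105, 218 and 167 in chow replicates 1 to 5. HFr replicate 1 and chow replicate 4 had both the highest CETP and the highest marker sums, HFr replicate 2 had the lowest of both, and HFr replicate 5 combined a low CETP value with a high marker sum. Of these markers TIMD4 had counts in 1 animal only. The 7 blood cell markers in the table were led by HBB. Their sums were 241, 101, 333, 205 and 280 in HFr replicates 1 to 5. In chow replicates 1 to 5 they were 113, 60.9, 104, 274 and 347. Mitochondrial transcripts took 61.6%, 73.6% and 41.8% of the counts in HFr replicate 1, chow replicate 4 and HFr replicate 2. The part of macrophages, of blood cells or of the mitochondrial share in the CETP values was not tested. Among inhibitors of CETP, APOF (lipid transfer inhibitor protein) had 64.9 ± 20.9 normalized counts in HFr livers (SD, n = 5) versus 91.7 ± 30.2 in chow livers (SD, n = 5), and its log2 fold change was -0.50 (95% interval -1.06 to 0.07). APOC1, another inhibitor, had 1109 ± 314 normalized counts in HFr livers versus 1192 ± 352 in chow livers (SD, n = 5 per diet), and its log2 fold change was -0.10 (95% interval -0.68 to 0.47).

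PLTP, on chromosome 2 from 17972215 to 17988701, encodes the phospholipid transfer protein. Its normalized counts were 14.97, 22.5, 20.04, 15.01 and 13.6 in HFr replicates 1 to 5 and 19.3, 6.96, 10.7, 11.5 and 25.6 in chow replicates 1 to 5. All HFr animals lay within the range of the chow animals, and 3 chow animals lay below every HFr animal. Means were 17.2 ± 3.85 in HFr livers (SD, n = 5) versus 14.8 ± 7.49 in chow livers (SD, n = 5). This gave a log2 fold change of 0.24 (standard error 0.30, 95% interval -0.41 to 0.89, unadjusted p = 0.443 from edgeR). It was 0.05 without chow replicate 2, the lowest animal, and 0.50 without chow replicate 5, the highest.

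Among the receptors, SCARB1 varied widely and LRP1 little. SCARB1, the HDL receptor gene, lies on the minus strand of chromosome 11 from 120134874 to 120216904. Its normalized counts were 25.8, 36.1, 22.04, 39.9 and 42.1 in HFr replicates 1 to 5 and 17.9, 38.9, 30.6, 29.1 and 8.22 in chow replicates 1 to 5. Chow replicates 1 and 5 were the lowest and the other 3 chow animals fell among the HFr animals. Means were 33.2 ± 8.82 in HFr livers (SD, n = 5) versus 24.96 ± 12.0 in chow livers (SD, n = 5). On the log2 scale the fold change was 0.40 (standard error 0.32, 95% interval -0.28 to 1.09, unadjusted p = 0.224 from edgeR), and it was 0.19 without chow replicate 5 and 0.63 without chow replicate 2. Its spread within a diet, an SD of 0.66 on the log2 scale, was larger than that of 90.5% of the tested transcripts, whose median SD was 0.36.

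PDZK1 encodes the adaptor that holds SCARB1 at the hepatocyte surface. Its normalized counts were 80.5, 92.7, 61.7, 103 and 76.1 in HFr replicates 1 to 5 and 61.5, 61.8, 70.5, 65.8 and 68.5 in chow replicates 1 to 5. The 4 HFr animals other than replicate 3 lay above all chow animals, and the log2 fold change was 0.34 (standard error 0.17, 95% interval -0.02 to 0.70, unadjusted p = 0.0641 from edgeR).

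LRP1, on chromosome 11 from 53039364 to 53125776, encodes a large endocytic receptor. Its normalized counts were 179, 144, 177, 225 and 175 in HFr replicates 1 to 5 and 138, 158, 205, 181 and 140.1 in chow replicates 1 to 5. The diets overlapped over most of their range. Means were 180.2 ± 29.0 in HFr livers (SD, n = 5) versus 164 ± 28.4 in chow livers (SD, n = 5). The log2 fold change of 0.13 (standard error 0.18, 95% interval -0.26 to 0.52, unadjusted p = 0.481 from edgeR) had the narrowest interval of the set, from 0.84-fold to 1.44-fold, and the SD within a diet was 0.23 on the log2 scale.

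LRPAP1, which encodes the chaperone that accompanies LRP1 and related receptors through the endoplasmic reticulum, had diet groups that did not overlap, as 0.541% of all tested transcripts did, whereas those of LRP1 overlapped. Its normalized counts in HFr replicates 1 to 5 were 25.8, 26.3, 32.1, 29.6 and 27.7, all above the values of 18.4, 19.8, 20.8, 22.1 and 21.5 in chow replicates 1 to 5. Its log2 fold change was 0.47 (standard error 0.15, 95% interval 0.16 to 0.78, unadjusted p = 0.00608 and adjusted p = 0.9996 from edgeR). The exact permutation test gave p = 0.00794, the smallest it can give with 5 against 5 animals.

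SORT1 (ENSCSAG00000001545) lies on the plus strand of chromosome 20, from 24150300 to 24239503. Its normalized counts in HFr replicates 1 to 5 were 13.5, 21.6, 9.62, 11.5 and 15.7, and in chow replicates 1 to 5 they were 7.04, 10.4, 10.4, 7.53 and 7.76. All HFr animals except replicate 3 lay above every chow animal. These values rest on 15 to 97 estimated counts per animal, with sums of 289 for the HFr animals and 168 for the chow animals. The mean was 14.4 ± 4.64 in HFr livers (SD, n = 5) versus 8.63 ± 1.65 in chow livers (SD, n = 5). On the log2 scale the fold change was 0.73 (standard error 0.24, 95% interval 0.21 to 1.24, unadjusted p = 0.00898 from edgeR), the smallest p of the set and the 52nd smallest of all tested transcripts, and the exact permutation test gave p = 0.0238. The study had singled out SORT1 on these same samples, so its direction is not independent evidence. The log2 fold change of SORT1 ranged from 0.53 without HFr replicate 2, the highest animal, to 0.83 without HFr replicate 3.

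The tested genes beside SORT1 on chromosome 20 had fitted values below 0, with standard errors too wide to separate them from no difference. PSMA5, a proteasome subunit gene that ends just before SORT1, had a log2 fold change of -0.10 (standard error 0.22). CELSR2, a cadherin gene further along, had only 2 to 23 estimated counts per animal. Its normalized counts were 2.34 ± 0.87 in HFr livers (SD, n = 5) versus 3.88 ± 1.91 in chow livers (SD, n = 5). The log2 fold change of CELSR2 was -0.63 (standard error 0.43, 95% interval -1.55 to 0.29). PSRC1 had at most 3 counts in any animal and MYBPHL had 0 counts in every animal, so neither was tested. APOB, the apolipoprotein that sortilin binds, had 1001 ± 315 normalized counts in HFr livers versus 1086 ± 428 in chow livers (SD, n = 5 per diet), and its log2 fold change was -0.12 (95% interval -0.74 to 0.50).

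ABCA1 and ABCG5 had the widest spread within a diet of the 10 genes, with SDs of 0.74 and 0.67 on the log2 scale. ABCA1, on chromosome 12 from 34587118 to 34731642, had 1 to 24 estimated counts per animal, with sums of 35 for the HFr animals and 30 for the chow animals. Its normalized counts were 1.12, 0.223, 0.801, 1.103 and 4.72 in HFr replicates 1 to 5 and 0.454, 0.870, 3.64, 1.004 and 0.913 in chow replicates 1 to 5. HFr replicate 5 and chow replicate 3 stood apart, and the other 8 animals had at most 5 counts each. Without the filter on low counts the log2 fold change was 0.19 (standard error 0.66, 95% interval -1.18 to 1.55, unadjusted p = 0.781 from edgeR). It was -0.87 without HFr replicate 5 and 1.098 without chow replicate 3, so these counts did not settle whether ABCA1 differed between the diets.

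ABCG5 and ABCG8 lie head to head on chromosome 14, ABCG5 on the plus strand from 63413691 to 63438917 and ABCG8 on the minus strand from 63390433 to 63413906. Their annotated transcripts overlap by 216 bases, and whether the counting used strand is not given in the sources used here. ABCG5 had 70.0, 24.95, 28.1, 68.0 and 53.3 normalized counts in HFr replicates 1 to 5 and 29.1, 45.2, 76.9, 27.1 and 26.5 in chow replicates 1 to 5. Both diets held low and high animals, with means of 48.8 ± 21.4 in HFr livers (SD, n = 5) and 41.0 ± 21.5 in chow livers (SD, n = 5). The log2 fold change of ABCG5 was 0.24 (standard error 0.35, 95% interval -0.52 to 0.99, unadjusted p = 0.511 from edgeR), and with 1 animal left out it ranged from 0.07 without HFr replicate 1 to 0.60 without chow replicate 3.

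ABCG8 had 21.7, 13.1, 15.6, 24.5 and 25.2 normalized counts in HFr replicates 1 to 5 and 10.7, 25.02, 15.7, 20.1 and 6.85 in chow replicates 1 to 5. Chow replicates 1 and 5 were the lowest, as for SCARB1 and LIPC, and means were 20.03 ± 5.38 in HFr livers (SD, n = 5) and 15.7 ± 7.24 in chow livers (SD, n = 5). The log2 fold change of ABCG8 was 0.35 (standard error 0.30, 95% interval -0.30 to 0.99, unadjusted p = 0.266 from edgeR), and it was 0.17 without chow replicate 5 and 0.60 without chow replicate 2.

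The ABCG5 and ABCG8 proteins function as a single transporter, and their transcripts were compared across the 10 animals on the log2 scale with a pseudocount of 1. Pearson's r was 0.60 (two-sided permutation test, p = 0.0661) and Spearman's rho was 0.58 (permutation p = 0.0878). This was the only relation across animals that was tested, so no adjustment applied. Without chow replicate 3 and HFr replicate 1, the animals farthest from the ABCG5 median, r was 0.73 over 8 animals (permutation p = 0.0387). Leaving out chow replicate 3 alone gave r = 0.72 (permutation p = 0.0291) and chow replicate 4 alone r = 0.69 (permutation p = 0.0423), and with any other single animal left out r was 0.54 to 0.61 (permutation p = 0.0763 to 0.131). With each diet centred on its own mean r was 0.58 (permutation p = 0.0823), and 5 animals per diet were too few for a value within each diet. The ratio of ABCG5 to ABCG8 estimated counts was lowest in chow replicate 4, at 1.35, and highest in chow replicate 3, at 4.91.

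**Figure D3:**
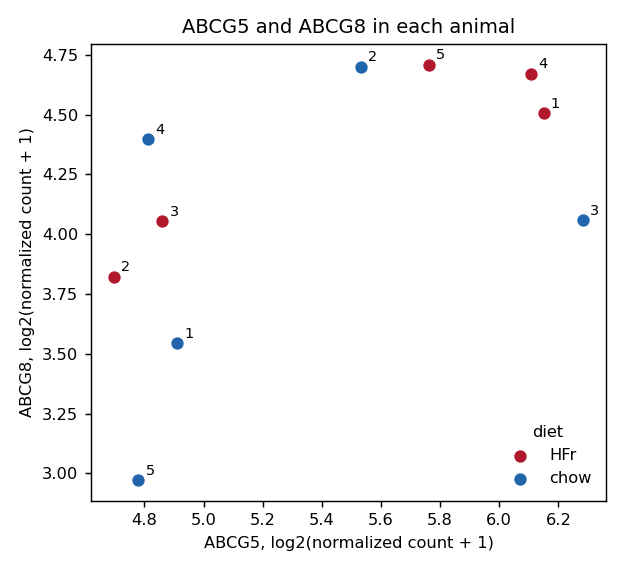
ABCG5 (x axis) against ABCG8 (y axis), both as log2(normalized count + 1), in each animal, coloured by diet and numbered by replicate. The animals scatter around an upward trend (r = 0.60), and chow replicate 3 has the highest ABCG5 value with a middle ABCG8 value.

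NR1H3 encodes the liver X receptor alpha, a sterol-sensing nuclear receptor that activates ABCA1, ABCG5 and ABCG8. It had 12.2 ± 2.73 normalized counts in HFr livers (SD, n = 5) versus 10.5 ± 2.89 in chow livers (SD, n = 5), and its log2 fold change was 0.21 (95% interval -0.30 to 0.73).

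Certain animals recurred at the extremes. HFr replicate 5 had the highest value for 4 of the 10 members, LIPC, SCARB1, ABCA1 and ABCG8, and chow replicate 5 the lowest for 4, LIPC, LCAT, SCARB1 and ABCG8. In the opposite direction, HFr replicate 2 was the lowest for 3 members, CETP, ABCA1 and ABCG5, and chow replicate 5 the highest for PLTP. HFr replicate 5 had 2380744 nuclear counts and a mitochondrial share of 44.0%, and chow replicate 5 had 932119 and 68.7%. Chow replicate 4, with 864571 and 73.6%, was the lowest for no member. The part of depth or of the mitochondrial share in these extremes was not tested. Chow replicates 1 and 5 also had the highest sums of stellate cell and fibroblast markers, 915 and 763 normalized counts, where the other 8 animals had 218 to 490.3. Of the 7 tested markers of that list, 2 were higher on the HFr diet. The smooth muscle actin gene ACTA2, 1 of the 7, was lower at an unadjusted p under 0.05 in edgeR. Over all transcripts, 4.29% were under this threshold in either direction. The means of ACTA2 were 5.17 normalized counts on the HFr diet and 15.8 on chow. RELN was one of the higher markers, at 72.5 against 62.5 on average, and the retinol esterification gene LRAT was at 0 in every animal. Chow replicate 1 was the lowest animal for SORT1 and LRP1, while its LCAT value of 139 normalized counts was the highest on chow. The part of these cells in the values of the members was not tested. Without chow replicate 5, the log2 fold changes were 0.42 for LIPC and 0.48 for LCAT. Endothelial marker sums were 271 to 295 normalized counts on the HFr diet and 183 to 285 on chow, and their part in the results was not tested either. Of the 8 tested endothelial markers, 6 were higher on the HFr diet. Of these 8, 1, KDR, had an unadjusted p under 0.05 in edgeR, where 4.29% of all transcripts did. KDR had 32.5 against 21.95 normalized counts on average and CLEC4G 29.7 against 20.4. VWF was lower at 17.7 against 20.8, and CDH5 at 22.7 against 23.4.

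Genes with related roles were taken from 5 lists written from general knowledge, of which 69 genes were tested. Of these, 34 were higher and 35 lower with HFr feeding, and 2 (2.90%) reached an unadjusted p under 0.05 in edgeR, where 4.29% of all transcripts did. None passed adjustment with edgeR's quasi-likelihood test. The median log2 fold change of the 69 genes was -0.01, against 0.35 for the 9 tested members. Members and lists were both chosen with earlier results of these data known, so nothing is concluded from this contrast.

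Among lipoprotein receptors and their partners, 14 of 20 listed genes were tested, 8 were higher and 6 lower, and LRPAP1 was the only gene of this list under an unadjusted p of 0.05. VLDLR, the VLDL receptor gene, had the smallest p of the lower genes, with 12.0 ± 6.77 normalized counts in HFr livers (SD, n = 5) versus 18.6 ± 4.23 in chow livers (SD, n = 5) (log2 fold change -0.66, 95% interval -1.38 to 0.05).

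Among plasma lipases, lipid transfer and HDL proteins, 19 of 23 listed genes were tested, 9 higher and 10 lower. PCSK6, a proprotein convertase gene, had 73.4, 82.0, 70.9, 94.2 and 80.8 normalized counts in HFr replicates 1 to 5 and 99.6, 109, 125, 75.8 and 118 in chow replicates 1 to 5. Every chow animal except replicate 4 lay above all HFr animals, and the log2 fold change was -0.39 (standard error 0.17, 95% interval -0.77 to -0.02, unadjusted p = 0.0402 from edgeR). ANGPTL4, which encodes an inhibitor of lipoprotein lipase, had 113 ± 49.7 normalized counts in HFr livers versus 79.0 ± 32.0 in chow livers (SD, n = 5 per diet), and its log2 fold change was 0.53 (95% interval -0.22 to 1.28).

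Sterol efflux genes and their nuclear receptors gave 18 tested genes, 11 higher and 7 lower, with none under an unadjusted p of 0.05 in edgeR. STARD3, a sterol transfer gene of late endosomes, had the smallest p of the higher genes (log2 fold change 0.91, 95% interval -0.09 to 1.90), at means of only 3.66 and 1.88 normalized counts. NR1H4, the bile acid receptor gene, had the smallest p of the lower genes (log2 fold change -0.27, 95% interval -0.66 to 0.11). Sortilin trafficking and APOB export gave 16 tested genes, 6 higher and 10 lower, also with none under 0.05. Their log2 fold changes of smallest p were 0.21 for SEC24C, a COPII coat gene (95% interval -0.43 to 0.86), and -0.21 for IGF2R, a lysosomal sorting receptor gene (95% interval -0.54 to 0.13).

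**Figure D4:**
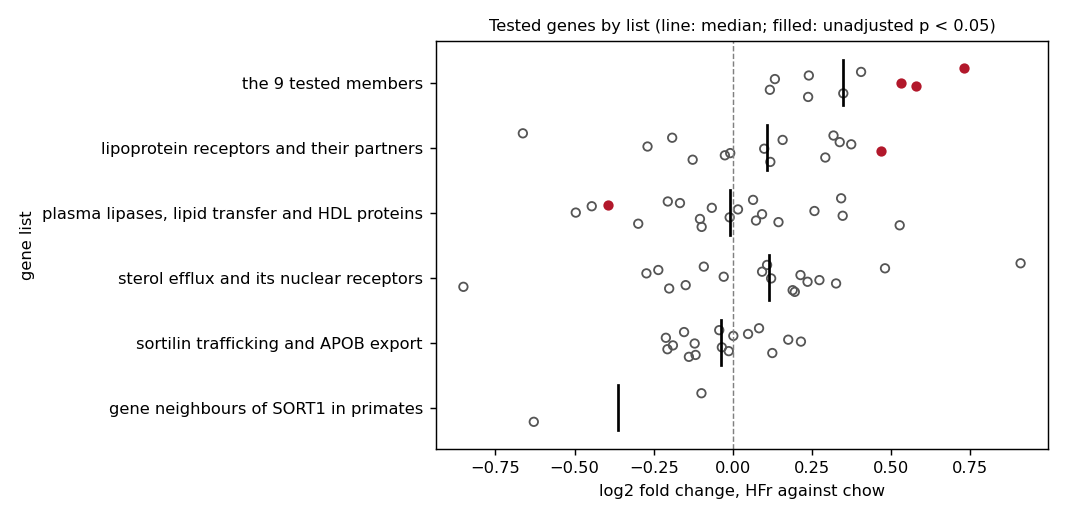
Log2 fold change, HFr against chow (x axis), of the 9 tested members and of the tested genes of the 5 related lists (y axis), with 1 circle per gene, a line at each median and filled circles for an unadjusted p under 0.05. The members lie between 0.12 and 0.73, 4 of the related lists spread on both sides of 0 with 2 filled circles in all, LRPAP1 and PCSK6, and the 2 neighbours of SORT1 lie below 0.

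Among the genes whose pattern over the 10 animals was most like that of SORT1 were INTS10 of the Integrator complex (Pearson's r 0.90, rank 3) and the linker histone gene H1FX (0.87, rank 4), on the log2 scale and out of 7947 other transcripts. Among members, LIPC was closest to SORT1, with r = 0.63 at rank 282. For ABCG5 the closest with a gene symbol were TSSC4 (0.93, rank 1), GNPDA1 (0.86, rank 3) and GMPR (0.84, rank 4). Among members, LRP1 (0.73, rank 40) was closer to ABCG5 than ABCG8 was (0.60, rank 213). These values describe likeness in libraries that share depth and normalization, and no test was made of them.

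Across 24 alternative settings of test, normalization, filter and animals, SORT1 had an unadjusted p under 0.05 in 23, LCAT in 22 and LIPC in 14, and the other 6 tested genes in 0. With normalization by library size alone none of the 9 genes was under 0.05, with p-values from edgeR of 0.0748 for SORT1, 0.145 for LCAT and 0.147 for LIPC at log2 fold changes of 0.77, 0.56 and 0.56. All 9 genes kept a higher mean on the HFr diet in every setting except CETP without HFr replicate 1 and ABCG5 without both chow replicates 4 and 5.

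**Figure D5:**
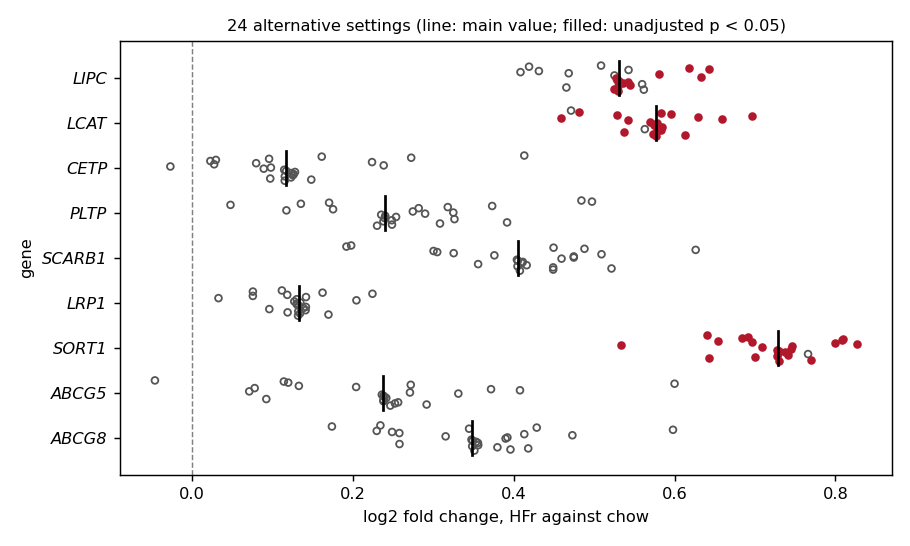
Log2 fold change, HFr against chow (x axis), of each tested gene (y axis) under 24 alternative settings, with 1 circle per setting, filled where the unadjusted p was under 0.05, and a line at the main value. SORT1 stays between 0.53 and 0.83 and LCAT between 0.46 and 0.70, LIPC ranges from 0.41 to 0.64 with open circles at several settings, and CETP and ABCG5 each have 1 value below 0.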

How the data were processed

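Liver RNA of 10 vervets was sequenced as 100 base paired-end reads. The authors aligned the reads (STAR 2.5.3a is named in the submitters' processing notes) to ChlSab1.1 and used the expectation-maximization step of Partek Flow with Ensembl release 93 to make the deposited estimated counts per transcript. The normalized signal values deposited by the authors were TMM-scaled without transcripts lacking reads. Coordinates come from the tables and start at 1, and the stop listed there was taken as exclusive.

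Estimated counts were rounded, filtered with filterByExpr (minimum count 10, minimum total 15) and tested with edgeR 4.0.16 in R 4.3.3 (quasi-likelihood, TMM, diet as the only term). Benjamini-Hochberg adjustment covered all 7948 tested transcripts. Normalized counts had TMM factors of 0.608 to 1.48. Single genes were compared on log2(normalized count + 1) by two-sided exact permutation over 252 assignments, and correlations were tested with 100000 permutations. Libraries held 2977282 to 4992505 estimated counts, which limits precision for low genes. One animal gave 1 biopsy and 1 library, so p-values set the diet difference against the spread between animals. In edgeR this spread was estimated partly from all tested transcripts and not from each gene alone. Differences between biopsies and between libraries are part of that spread and cannot be told apart from it.

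The members and lists were chosen with earlier results of these data known. Named genes were the members, 7 partners (APOA1, APOB, APOF, APOC1, LRPAP1, PDZK1 and NR1H3), the gene of smallest p in each direction of each list, and the 3 named transcripts most like SORT1 and ABCG5, of which 1 for SORT1 is not reported here. PSMA5, PSRC1, MYBPHL and marker genes were named outside this rule, after their values were seen. Alternatives were DESeq2 1.42.0, limma 3.58.1, voom weights, the study's equal-variance test, other normalizations and filters, counts summed by gene, mitochondrial transcripts removed or their percent as a covariate, a replicate block and each animal left out. The edgeR procedure was tested on simulated counts in which every transcript had the same relative spread between animals. The permutation tests were not part of this simulation.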

Additional observations from a re-analysis of the deposited data

Results flagged for a closer look

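Among 50 groups of 5 animals checked for a value far from the others (Dixon's test), 3 had one, and chance gives about 1 in 20 groups. For ABCA1, HFr replicate 5 had 4.72 normalized counts, where the other HFr animals had 0.223 to 1.12. In the same gene, chow replicate 3 had 3.64, where the other chow animals had 0.454 to 1.004. These are the libraries with the most nuclear counts of their diets, 2380744 and 2657103, and the part of depth in the ABCA1 values was not tested. For CELSR2, HFr replicate 3 had 0.801 normalized counts, where the other HFr animals had 2.62 to 2.90. These values rest on 2 estimated counts in HFr replicate 3 and 7 to 14 in the other HFr animals.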

How the results depend on the processing

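The number of transcripts with an adjusted p under 0.05 was 2 with DESeq2, 1 with normalization by library size alone and 0 under the other alternatives, and none was a member. Transcripts with an unadjusted p under 0.05 numbered 124 with library size alone and 756 of 16066 without a filter on low counts, which tests more transcripts, against 341. With 1 animal left out they ranged from 261 to 408. Members under an unadjusted p of 0.05 numbered 0 with library size alone, 2 to 3 with 1 animal left out, and 1 (SORT1) without chow replicates 4 and 5, the 2 animals under 1000000 nuclear counts, an alternative added after seeing the data. Where not explained by fewer animals or more transcripts, the cause was not tested. Directions turned for CETP without HFr replicate 1 (log2 fold change -0.0271, against a range up to 0.27 with other animals left out) and for ABCG5 without chow replicates 4 and 5 (-0.0463). The correlation of ABCG5 with ABCG8 was 0.542 to 0.716 with 1 animal left out and 0.769 (permutation p = 0.00590) with library size alone. Library size alone scaled by totals of which mitochondrial transcripts took 34.7% to 73.6%, without TMM factors. The part of the mitochondrial share in this r of 0.769 was not tested. With a replicate block, 271 transcripts and the same 3 members were under 0.05. Deviations of same-numbered animals correlated by -0.287 to 0.0986, so the numbers were not taken to pair the animals. At this depth ABCA1 had too few counts to be tested with the filter.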
